A study of Mus musculus with 10 samples.

Results

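A set of 10 genes that mark the border macrophages of the dura was followed in RNA from sorted meningeal lymphatic endothelial cells (LECs): Adgre1, Csf1r, C1qa, C1qb, C1qc, Mrc1, Cd163, Pf4, Aif1 and Cd74. They were taken by gene symbol from the 55401 genes of the count table, and each symbol matched a single row. The set was selected on its read counts in these same libraries, which were known when it was drawn up, so its levels are a description and the comparison of the groups below is no independent evidence. Female C57BL/6 mice of 3 months were either left unstressed (naive, 5 replicates) or put through sub-chronic variable stress (SCVS, 5 replicates), in which foot-shock, tail suspension and restraint alternated over 6 days. In both groups the dura was digested in the presence of actinomycin D, a blocker of transcription, and viable CD45-CD31+podoplanin+ cells were sorted. Each replicate held cells pooled from 3 to 4 mice, and which cohort a replicate came from is not given in the labels. The gate was set against CD45, the surface protein encoded by Ptprc that leukocytes carry, so macrophages were not its target.

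Border macrophages live at the edges of the brain, in the dura, the leptomeninges and around vessels. They survive on signals through the CSF1 receptor, take up debris through scavenger receptors, make the C1q that starts the classical complement pathway and, in part, load peptides onto MHC class II. Some of their genes are shared with other cells of the dura. Mrc1 is also made by LECs, Pf4 is abundant in platelets and megakaryocytes, and Cd74 is made by all cells with MHC class II.

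The reads assigned to genes came to 10421467 to 13975282 per naive and 9984743 to 14094155 per SCVS replicate. A count of 3, taken as the floor of detection, was worth between 0.213 and 0.3005 CPM (counts per 1000000 of the replicate's total). This floor takes in counting error alone, since reads made by amplification do not each stand for a molecule. Some libraries stood apart in the genes of the sorted cells or of other cells. Naive replicate 5 had 287 counts of the pan-endothelial gene Pecam1 and 2 of Cldn5, against 5870 to 15644 and 2157 to 17473 in the other replicates. Lyve1 had 2 counts in naive replicate 1 and 1 in naive replicate 5, against 946 to 10709 elsewhere. Prox1 had 0 counts in naive replicate 1, 2 in SCVS replicate 5 and 15 in SCVS replicate 1, against 56 to 2751 in the others, naive replicate 5 included. Red cell genes summed to 4915 CPM in SCVS replicate 5 and to at most 125 CPM elsewhere. A list of 9 lymphatic endothelial genes summed to 74.4 to 2929 CPM in naive and 471 to 3243 CPM in SCVS mice, and a list of 8 blood endothelial genes to 313 to 10273 and 5219 to 9324 CPM.

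The macrophage genes were present in the sorted cells of both groups and were very uneven between replicates. Naive replicate 4 and SCVS replicate 4 had more than 3 counts of all 10 genes. The other naive replicates had 3, 5, 4 and 5 of the 10 above that floor, for replicates 1, 2, 3 and 5, and the other SCVS replicates had 8, 3, 8 and 7, for replicates 1, 2, 3 and 5. Over all genes and replicates, 28 of 100 values were 0 and 9 were between 1 and 3 counts.

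The summed level of the 10 genes was 44.0, 301, 152, 807 and 156 CPM across naive 1 to 5 and 369.9, 164, 940.5, 6565 and 323 CPM across SCVS 1 to 5. SCVS replicate 4 thus held 0.656% of its reads on these genes, while the other 9 libraries held 0.0044% to 0.094%. The group means were 292 ± 302 CPM (SD, n = 5) in naive and 1673 ± 2751 CPM (SD, n = 5) in SCVS mice. Without SCVS replicate 4 the SCVS mean was 449 ± 339 CPM (SD, n = 4), which is 1.54 times the naive mean in place of 5.73 times with it. In bulk RNA, more cells of a type and more RNA per cell cannot be told apart.

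**Figure D1:**
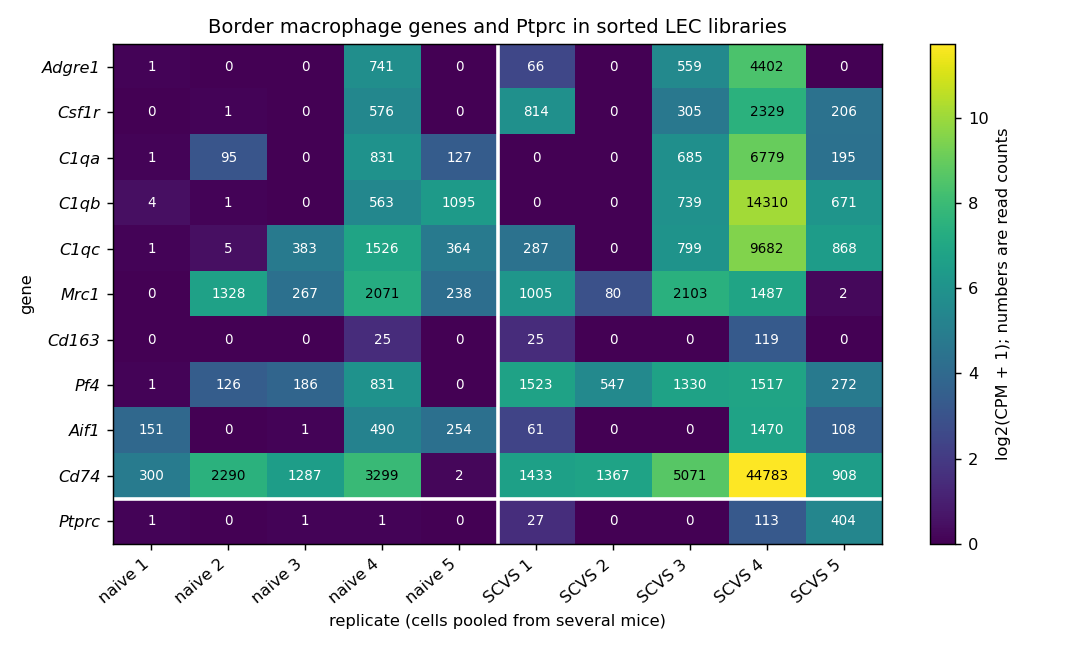
Heat map of the 10 genes and of Ptprc (rows) in the 5 naive and 5 SCVS replicates (columns), coloured by log2(CPM + 1) with the read count printed in each cell. Naive replicate 4 and SCVS replicate 4 are filled in all 10 rows, whereas SCVS replicate 2 has 7 of the 10 genes at 0, and Ptprc has at most 1 count in every naive replicate.

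SCVS replicate 4 was the highest of all 10 replicates for 9 of the 10 genes, the exception being Mrc1, and this library was the highest for 9.15% of the 14815 genes tested. Naive replicate 4 was the highest naive replicate for 9 of the 10 genes, the exception being C1qb, against 18.3% of the genes tested. Between 17.3% (Mrc1) and 82.3% (C1qb) of a gene's counts over the whole series came from SCVS replicate 4, with a median of 70.0%. The coefficient of variation (SD divided by mean) within a group had a median over the 10 genes of 1.49 in naive and 1.78 in SCVS mice, where the medians over the tested genes were 0.935 and 0.866.

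Adgre1 (ENSMUSG00000004730; GRCm38 chromosome 17, 57358581 to 57483529) encodes F4/80, the adhesion receptor by which mouse macrophages are usually recognised. It gave 1, 0, 0, 741 and 0 reads across naive 1 to 5 and 66, 0, 559, 4402 and 0 reads across SCVS 1 to 5. Naive replicate 4 lay between SCVS replicates 3 and 4, and both groups held replicates with no read. It averaged 10.9 ± 24.4 CPM in the naive group, 76.5 ± 144 CPM in the SCVS group (SD, n = 5 per group) and 12.5 ± 22.0 CPM in the SCVS group without replicate 4 (SD, n = 4).

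Csf1r (ENSMUSG00000024621; chromosome 18, 61105572 to 61131139) encodes the receptor for CSF1 and IL-34 on which macrophages depend. It gave 0, 1, 0, 576 and 0 reads across naive 1 to 5 and 814, 0, 305, 2329 and 206 reads across SCVS 1 to 5. More than 3 counts were found in 1 naive and 4 SCVS replicates, and naive replicate 4 lay within the SCVS range. It averaged 8.50 ± 19.0 CPM in the naive group against 55.8 ± 70.3 CPM in the SCVS group (SD, n = 5 per group). The contrast of both receptors moved most without naive replicate 4. No other naive replicate had more than 1 count of either. Without naive replicate 4, the SCVS mean was at least 318-fold (Adgre1) and 232-fold (Csf1r) above the naive floor of 3 counts. That floor is the mean CPM that 3 counts give in the naive libraries kept. Without SCVS replicate 4 as well, these bounds were 52.0-fold and 107-fold. They arise from leaving out the only naive library above the floor, and they allow for counting error alone. With all replicates, the naive means were 10.9 and 8.50 CPM against SCVS means of 76.5 and 55.8 CPM. SCVS replicate 2 also had no read of either gene, and SCVS replicate 5 had none of Adgre1. The bounds are therefore no evidence of a difference between the groups.

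Of 11 genes that act with the CSF1 receptor, 5 to 7 had more than 3 counts in a naive and 6 to 10 in an SCVS replicate, with Tyrobp and Csf1 at the highest mean level. The ligand Csf1 was above the floor in 9 of 10 replicates. Il34, the other ligand, had 192 and 63 counts in naive replicates 1 and 2, 526 in SCVS replicate 1 and 4 in SCVS replicate 3. Spi1, which encodes the myeloid transcription factor PU.1, was read in SCVS replicate 4 (876 counts) and SCVS replicate 1 (104 counts), with at most 3 counts in any other library. Tyrobp, the adaptor of TREM2 and related receptors, gave 1, 0, 2, 575 and 64 reads across naive 1 to 5 and 348, 0, 505, 2005 and 875 reads across SCVS 1 to 5, and its groups overlapped.

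The chains of C1q, which bind immune complexes and start the classical complement pathway, are encoded side by side. C1qb, C1qc and C1qa lie within 18719 bases of GRCm38 chromosome 4 (136880126 to 136898844). The 250 bases before the starts in RefSeq's promoter table of C1qb (chr4:136886201-136886450, minus strand) and C1qc (chr4:136892915-136893164, minus strand) are shown because these neighbours were detected together in some libraries and apart in others, and those of Mrc1 (chr2:14229164-14229413, plus strand) because its pattern differed from theirs. The C1qc window takes in 22 bases of the gene's full extent, since its start there lies inside the outermost one. Capitals mark GAGGAA, the core bound by PU.1, or its complement TTCCTC.
C1qb: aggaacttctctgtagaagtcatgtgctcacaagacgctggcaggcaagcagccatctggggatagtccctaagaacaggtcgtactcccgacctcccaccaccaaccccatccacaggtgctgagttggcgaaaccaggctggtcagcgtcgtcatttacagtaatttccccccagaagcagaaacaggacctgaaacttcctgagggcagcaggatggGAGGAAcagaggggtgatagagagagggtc
C1qc: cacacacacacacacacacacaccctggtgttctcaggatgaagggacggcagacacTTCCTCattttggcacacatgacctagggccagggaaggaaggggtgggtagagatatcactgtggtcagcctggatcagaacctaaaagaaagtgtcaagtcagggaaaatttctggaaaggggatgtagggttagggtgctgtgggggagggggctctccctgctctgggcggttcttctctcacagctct
Mrc1: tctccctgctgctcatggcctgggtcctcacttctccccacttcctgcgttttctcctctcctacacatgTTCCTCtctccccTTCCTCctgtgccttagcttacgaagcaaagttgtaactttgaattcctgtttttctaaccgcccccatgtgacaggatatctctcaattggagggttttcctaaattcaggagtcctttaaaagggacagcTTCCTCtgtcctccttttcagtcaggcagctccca

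Promoters of 6 of the 10 genes (Aif1, C1qb, C1qc, Cd163, Mrc1 and Pf4) were matched in RefSeq (GRCm38.p6). Searched on both strands, GAGGAA occurred 3 times in the window of Mrc1 and once each in those of C1qb, C1qc, Pf4 and Aif1. It was not found in the window of Cd163, and it occurred in 23.3% of 32817 promoter windows of the same length. The windows of Aif1 and Cd163 take in 31 and 15 bases of the genes' full extents, and the Aif1 match lies inside its gene. TATAAA, the TATA box, was found in none of the 6 windows and in 12.4% of all. These matches describe the letters and not binding.

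C1qa (ENSMUSG00000036887) gave 1, 95, 0, 831 and 127 reads across naive 1 to 5 and 0, 0, 685, 6779 and 195 reads across SCVS 1 to 5. C1qb (ENSMUSG00000036905) had 4, 1, 0, 563 and 1095 counts in the naive and 0, 0, 739, 14310 and 671 in the SCVS replicates, in the same order. C1qc (ENSMUSG00000036896) had 1, 5, 383, 1526 and 364 counts in the naive and 287, 0, 799, 9682 and 868 in the SCVS replicates. All chains were above the floor together in 5 replicates, naive 4 and 5 and SCVS 3, 4 and 5, and SCVS replicate 2 had no C1q read.

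In naive replicate 3 and SCVS replicate 1 the C1q reads came from C1qc alone, and in naive replicate 2 all but 6 of 101 came from C1qa. The chains are assembled into C1q in equal numbers, so their counts were also set per length of exon. In naive replicate 4, C1qa, C1qb and C1qc took 37.9%, 24.6% and 37.5% of the C1q reads per kilobase, and in SCVS replicate 3 they took 37.6%, 38.8% and 23.6%. In SCVS replicate 4 the shares were 26.4%, 53.3% and 20.3%, and in SCVS replicate 5 they were 15.0%, 49.2% and 35.9%. Naive replicate 5 was the most uneven of the 5, with 9.27%, 76.4% and 14.3%.

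The summed level of the C1q chains was 0.576 to 215 CPM in naive mice, with a median of 27.4, and 0 to 2325 CPM in SCVS mice, with a median of 174. Its mean was 74.0 ± 92.0 CPM in naive and 539.9 ± 1001 CPM in SCVS libraries (SD, n = 5 per group), and 93.6 ± 96.7 CPM in SCVS mice without replicate 4 (SD, n = 4). Thus the ratio of the SCVS to the naive mean was 7.30 with and 1.26 without that library. Naive replicate 5, which was low in endothelial genes, held the highest C1qb level of the naive group, 82.2 CPM.

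Of 16 complement genes listed in the table beside C1q, 8 to 9 were above the floor in a naive and 8 to 12 in an SCVS replicate. C1ra and C1s1, which encode the proteases that join C1q in the C1 complex, were also read unevenly. C1ra gave 63, 1055, 425, 1 and 4 reads across naive 1 to 5 and 0, 578, 0, 351 and 44 reads across SCVS 1 to 5. C1s1 gave 627, 135, 0, 169 and 0 reads across naive 1 to 5 and 299, 0, 1, 8 and 0 reads across SCVS 1 to 5. Both were above the floor in some libraries with few or no C1q reads, as in naive replicate 1. C3ar1, a receptor for a fragment of C3, was highest in SCVS replicate 4 with 1098 counts, followed by 47 in naive replicate 4, 32 and 31 in SCVS replicates 3 and 2, and at most 1 in the other 6 libraries.

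The scavenger receptors differed from each other in level and in pattern. Mrc1 (ENSMUSG00000026712; chromosome 2, 14229414 to 14332023), the mannose receptor CD206, gave 0, 1328, 267, 2071 and 238 reads across naive 1 to 5 and 1005, 80, 2103, 1487 and 2 reads across SCVS 1 to 5. The highest replicate was SCVS 3, and high and low replicates were found in both groups. It averaged 58.7 ± 66.2 CPM in the naive group against 72.2 ± 72.1 CPM in the SCVS group (SD, n = 5 per group). In naive replicates 2, 3 and 5 and SCVS replicate 2, Mrc1 was above the floor while Adgre1 was at 0. The lymphatic gene Lyve1, which border macrophages also make, had 10709, 2966, 1 and 946 counts in these libraries. The lymphatic list summed to its lowest level in naive replicate 1, where Mrc1 was at 0, and the part of LECs and of macrophages in Mrc1 was not tested.

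Cd163 (ENSMUSG00000008845; chromosome 6, 124304636 to 124330529), the receptor for haemoglobin bound to haptoglobin, was the lowest of the 10 genes. Reads were found in 3 libraries, 25 in naive replicate 4, 25 in SCVS replicate 1 and 119 in SCVS replicate 4, and the other 7 were at 0. It averaged 0.368 ± 0.824 CPM in the naive group against 2.15 ± 3.90 CPM in the SCVS group (SD, n = 5 per group), and the SCVS mean was 0.443 ± 0.887 CPM without replicate 4 (SD, n = 4).

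Pf4 (ENSMUSG00000029373; chromosome 5, 90772435 to 90773383), a chemokine of platelet granules and of some tissue macrophages, was the gene with the most even SCVS levels. It gave 1, 126, 186, 831 and 0 reads across naive 1 to 5 and 1523, 547, 1330, 1517 and 272 reads across SCVS 1 to 5. All SCVS replicates were above the floor, against 3 naive replicates, and naive replicate 4, with 61.2 CPM, lay above SCVS replicates 2 and 5, with 44.9 and 27.2 CPM. It averaged 16.9 ± 25.5 CPM in the naive group, 80.6 ± 41.2 CPM in the SCVS group (SD, n = 5 per group) and 72.0 ± 42.1 CPM in the SCVS group without replicate 4 (SD, n = 4).

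Platelet genes were read in the same libraries. Of 10 genes of platelets and megakaryocytes, 0 to 7 were above the floor in a naive and 4 to 9 in an SCVS replicate, and their sum was 0.0750 to 353 CPM in naive and 59.1 to 708 CPM in SCVS mice. Ppbp, another chemokine of platelet granules, gave 5, 3415, 526, 837 and 1 reads across naive 1 to 5 and 4854, 2009, 1888, 511 and 354 reads across SCVS 1 to 5. In SCVS replicate 2, where Adgre1, Csf1r and the C1q chains were at 0, Pf4 had 547 counts and the platelet receptor gene Gp5 had 991. In SCVS replicates 3 and 4 it had 1330 and 1517 counts while Gp5, which was also at 0 in all naive replicates, was at 0. Itga2b, the platelet integrin chain, had 32 and 122 counts in that pair of libraries. The part of platelets and of macrophages in Pf4 was not tested.

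Aif1 (ENSMUSG00000024397; chromosome 17, 35170986 to 35176083) encodes IBA1, a protein that bundles actin in macrophages and microglia. It gave 151, 0, 1, 490 and 254 reads across naive 1 to 5 and 61, 0, 0, 1470 and 108 reads across SCVS 1 to 5. More than 3 counts were found in 3 replicates of each group. It averaged 13.9 ± 15.0 CPM in the naive group against 25.2 ± 48.2 CPM in the SCVS group (SD, n = 5 per group). Without SCVS replicate 4 the SCVS mean was 3.79 ± 5.11 CPM (SD, n = 4), below the naive mean, so the order of the group means rested on that library.

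Cd74 (ENSMUSG00000024610; chromosome 18, 60803849 to 60812652), the invariant chain that guides MHC class II to the compartment where peptides are loaded, was read in every replicate. It gave 300, 2290, 1287, 3299 and 2 reads across naive 1 to 5 and 1433, 1367, 5071, 44783 and 908 reads across SCVS 1 to 5. Naive replicate 5 had 0.150 CPM, and the other 9 replicates had 28.8 to 3384 CPM. It averaged 109 ± 102 CPM in the naive group, 820.1 ± 1440 CPM in the SCVS group (SD, n = 5 per group) and 179 ± 155 CPM in the SCVS group without replicate 4 (SD, n = 4). Without Cd74, the other 9 genes summed to 15.3 to 564 CPM in naive and 51.5 to 3181 CPM in SCVS mice.

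The summed level of the partners of Cd74 was also highest in SCVS replicate 4, as were 7 of these 14 genes, while the other 7 peaked in other libraries, among them Ciita, the activator of class II transcription, in naive replicate 4. Of the 14 genes of the MHC class II route, 5 to 9 were above the floor in a naive and 8 to 12 in an SCVS replicate, and their sum was 155 to 411 CPM in naive and 330.3 to 5884 CPM in SCVS mice. H2-Ab1, which encodes a class II beta chain, gave 4, 3, 869, 424 and 3 reads across naive 1 to 5 and 1233, 863, 1452, 28339 and 944 reads across SCVS 1 to 5. H2-Aa, which encodes an alpha chain, had 4 to 1191 counts in naive and 128 to 18060 in SCVS replicates. Ctss, a protease that cuts the invariant chain, had 0, 171, 4, 278 and 287 counts in the naive and 399, 163, 593, 12005 and 815 in the SCVS replicates.

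**Figure D2:**
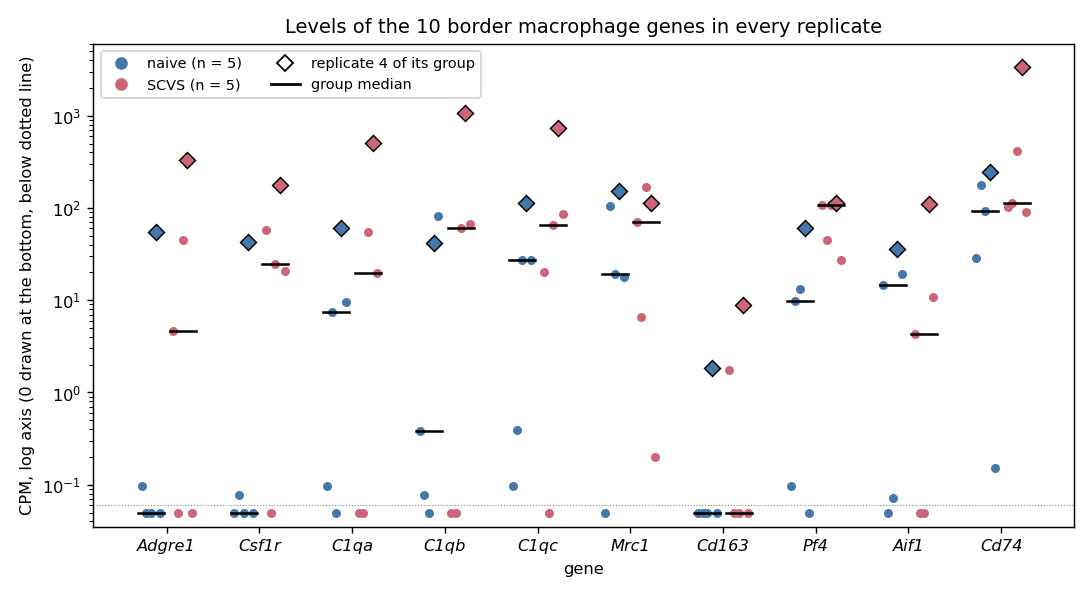
CPM on a log axis of each of the 10 genes in naive (blue) and SCVS (red) replicates, with diamonds for replicate 4 of each group and black lines for group medians (values of 0 are drawn at the bottom). The ranges of the groups overlap for all 10 genes, and Pf4 has no SCVS replicate below 27.2 CPM.

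Between SCVS and naive mice, the mean CPM was higher in SCVS mice for 10 of 10 genes, where 50.9% of the 14815 tested genes were higher. Without SCVS replicate 4 it was higher for 9 of 10, all but Aif1, against 50% of the tested genes. Comparing medians, 8 of 10 were higher in SCVS mice, Aif1 was lower, and Cd163 had a median of 0 in both groups. The groups overlapped for all 10 genes, while 0.628% of the tested genes had groups that did not, 0.445% with every SCVS replicate above and 0.182% with every SCVS replicate below the naive ones.

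Tested by edgeR (quasi-likelihood, Benjamini-Hochberg adjustment over the 14815 tested genes), 0 of the 10 genes had an adjusted p under 0.1, and 0 of all tested genes (0%) did. All 10 passed the filter on low counts, and the adjusted p of each came to 1.00. Without adjustment, edgeR put 0 of the 10 under 0.05, against 3.1% of the tested genes. DESeq2 and limma with voom also gave 0 of the 10 an adjusted p under 0.1, against 0.769% and 0.0135% of the tested genes. Without adjustment each of them put 1 of the 10 under 0.05, Cd74 in DESeq2 and Pf4 in limma, against 4.46% and 4.97% of the tested genes. DESeq2 gave C1qb no p, as it does for genes with an outlying count.

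The log2 fold changes in edgeR were positive for 10 of 10 genes, with a median of 2.66, where 48.2% of the tested genes were positive and their median was −0.03. The largest were those of C1qb, 3.30 (standard error 2.38), C1qa, 2.96 (standard error 2.21), and Cd74, 2.95 (standard error 1.43). Adgre1 had 2.87 (standard error 2.60), Csf1r 2.76 (standard error 2.31), Cd163 2.56 (standard error 2.45) and C1qc 2.47 (standard error 1.80). Pf4 had 2.26 (standard error 1.42), Aif1 0.87 (standard error 2.15) and Mrc1 0.34 (standard error 1.51). The standard error was larger than the value for Aif1 and Mrc1 and smaller than it for the other 8.

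Without SCVS replicate 4 the median log2 fold change was 0.38 over the 9 genes tested, and 8 of the 9 were positive. Adgre1 had 0.27 (standard error 2.86), C1qa 0.33 (standard error 2.35), C1qb 0.38 (standard error 2.40), C1qc 0.40 (standard error 1.80) and Cd74 0.73 (standard error 1.18). Pf4 kept most of its value, with 2.09 (standard error 1.56), and Csf1r had 1.63 (standard error 2.54). Aif1 turned to −1.88 (standard error 2.46). Without naive replicate 4 the median over 9 genes was 3.68, and each adjusted p stayed at 1.00. Before adjustment in edgeR, 3 of the 9 (Adgre1, Csf1r and Pf4) were under 0.05, against 3.7% of the genes tested there. Naive replicate 4 was the highest naive library for 9 of the 10 genes, so leaving it out lowers their naive values. That count is therefore no evidence of a difference between the groups. Cd163 did not pass the filter in either case.

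**Figure D3:**
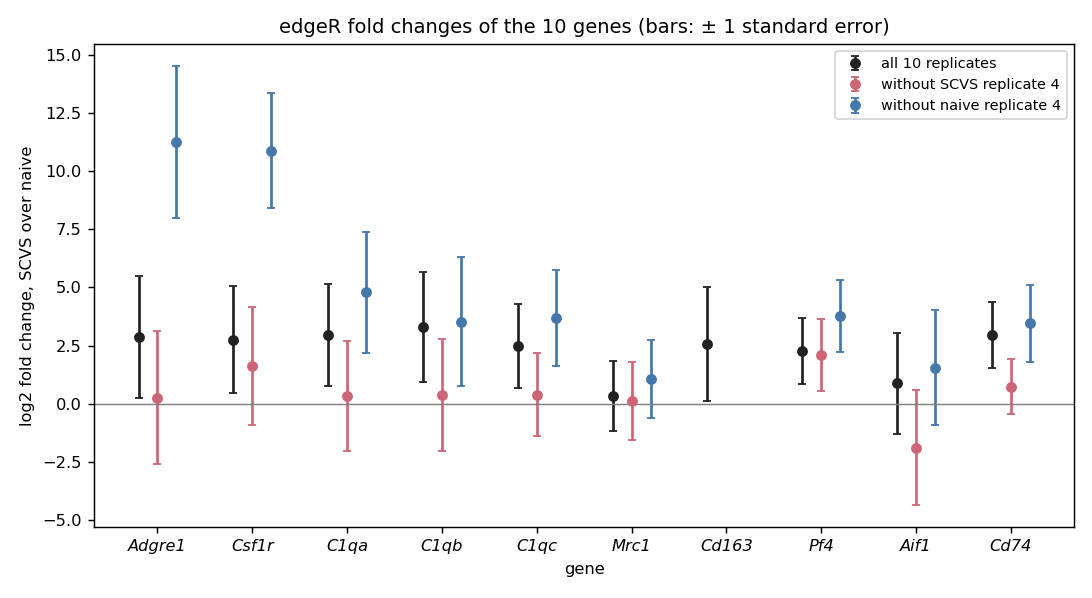
Log2 fold change, SCVS over naive, of the 10 genes from edgeR with all replicates (black), without SCVS replicate 4 (red) and without naive replicate 4 (blue), with bars of 1 standard error. With all replicates the values lie between 0.34 and 3.30, and without SCVS replicate 4 those of Adgre1 and the C1q chains lie between 0.27 and 0.40.

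Ptprc (ENSMUSG00000026395), the gene of the protein that the gate excluded, gave 1, 0, 1, 1 and 0 reads across naive 1 to 5 and 27, 0, 0, 113 and 404 reads across SCVS 1 to 5. Thus naive replicate 4 had all 10 macrophage genes above the floor with a single Ptprc count, and SCVS replicate 3 had 8 of them with no Ptprc count. Other leukocyte genes were read in both libraries. From a list of 16 pan-leukocyte genes that includes Ptprc, 9 were above the floor in naive replicate 4 and 8 in SCVS replicate 3. Among them, Cd53 had 617 and 364 counts and Fcer1g had 553 and 1663. The SCVS mean of 10.2 ± 17.3 CPM (SD, n = 5) was at least 43.0-fold above the naive floor of 3 counts. This bound was 11.0-fold without SCVS replicate 5, and it then rested on the 113 and 27 counts of SCVS replicates 4 and 1. SCVS replicates 2 and 3 had no Ptprc read, and the SCVS median was 1.92 CPM. The bounds allow for counting error alone and are no evidence of a difference between the groups. edgeR gave Ptprc an adjusted p of 0.971. SCVS replicate 5, which had the most Ptprc reads, had no Adgre1 read and held the most mast cell reads, with 973 counts of Cpa3 and 979 of Fcer1a.

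**Figure D4:**
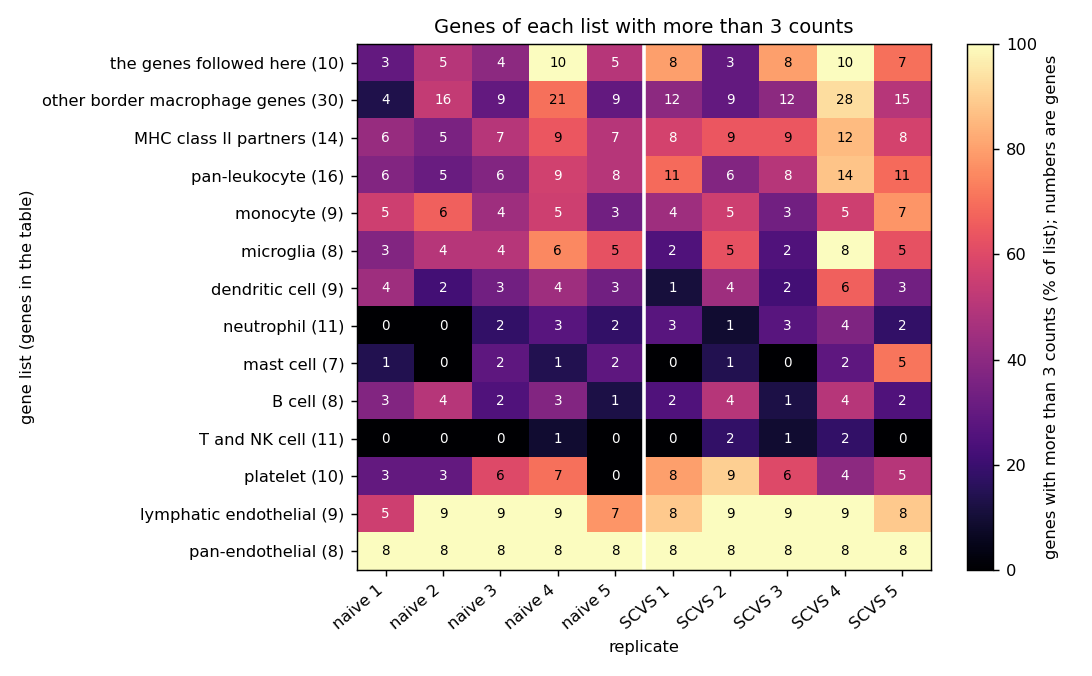
Genes with more than 3 counts in each replicate (columns) for 14 gene lists (rows, with the number of genes in the table), printed as a number and coloured as a percentage of the list. SCVS replicate 4 has 28 of 30 further border macrophage genes and 14 of 16 pan-leukocyte genes above the floor, and the list of T and NK cell genes has at most 2 of 11 in any replicate.

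The other lists put these levels beside those of further cell types. Of 30 further border macrophage genes, 4 to 21 were above the floor in a naive and 9 to 28 in an SCVS replicate. Naive replicate 4 had the 21 and SCVS replicate 4 the 28. Their sum, led by Apoe and Lyz2, was 1685 to 3521 CPM in naive and 1248 to 12503 CPM in SCVS mice. Apoe alone held 2583 of 2663 CPM in naive replicate 1, where 4 of the 30 genes were above the floor. In SCVS replicate 4 it held 5340 of 12503 CPM. The part of other cells in Apoe was not tested. Of 16 pan-leukocyte genes, 5 to 9 were above the floor in a naive and 6 to 14 in an SCVS replicate, and their sum, led by Arhgdib and Lcp1, was 106 to 615 CPM and 306 to 1538 CPM. In edgeR, 0 genes of any list had an adjusted p under 0.1. The median log2 fold change was 1.44 over the 19 tested macrophage genes, 2.25 over the 14 tested pan-leukocyte genes, 1.51 over 12 MHC class II genes, 1.69 over 9 genes of the CSF1 receptor pathway, 1.08 over 7 platelet genes and −0.70 over 13 complement genes. Lists of other cells also had medians away from 0. They were 6.02 over 5 red cell genes, of which 5 were positive, and −2.70 over 6 fibroblast genes, of which 1 was. Over 6 mural genes, of which 0 were positive, the median was −1.99. Their part in the levels of the 10 genes was not tested.

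T and NK cell and neutrophil genes were sparse, whereas other immune lists were read in part. Of 11 T and NK cell genes, led by Lck and Cd3e, at most 2 were above the floor in a replicate, and Cd3g, Cd4, Cd8a and Trac had no read. Of 11 neutrophil genes, led by Ltf and Csf3r, 0 to 4 were above the floor and Retnlg had no read. Of 8 B cell genes, led by Ebf1 and Ighm, 1 to 4 were, and Ms4a1 and Ighd had no read. Of 7 mast cell genes, led by Cpa3 and Fcer1a, 0 to 5 were, and Mcpt4 had no read. Of 9 monocyte genes (led by Nr4a1 and Ace) 3 to 7 were. For 9 dendritic cell genes (led by Zbtb46 and Clec9a) the range was 1 to 6, and for 8 microglia genes 2 to 8. SCVS replicate 4 had the 8 microglia and the 6 dendritic cell genes, and SCVS replicate 5 the 7 monocyte genes. The microglia genes summed to 751 CPM in SCVS replicate 4, where 6 of the 8 were highest, and to at most 288 CPM elsewhere. The sum of the dendritic cell genes was highest in naive replicate 4, with 160 CPM. The part of each of these cell types in the 10 genes was not tested.

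Among the vessel and tissue lists, all 8 pan-endothelial genes, led by Emcn and Egfl7, were above the floor in every replicate, as were 5 to 9 of 9 lymphatic genes, led by Mmrn1 and Lyve1, and 3 to 8 of 8 blood endothelial genes, led by Plvap and Ly6c1. Fibroblast genes, led by Dcn and Col1a1, summed to 55.5 to 1627 CPM in naive and 18.5 to 1509.8 CPM in SCVS mice. Mural genes, led by Rgs5 and Acta2, summed to 770.0 to 7681 and 413 to 5906 CPM, and red cell genes, led by Hba-a1 and Hbb-bs, to 4.32 to 46.7 and 10.9 to 4915 CPM.

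To compare the 10 genes with each other, CPM were divided by the exon length of each gene in kilobases. The order of the medians differed between the groups. In naive mice it was Cd74 (65.3 CPM per kilobase), Pf4 (16.8), C1qc (14.1), Aif1 (9.46), C1qa (7.15), Mrc1 (3.21) and C1qb (0.353), with Adgre1, Csf1r and Cd163 at 0. In SCVS mice it was Pf4 (184), Cd74 (79.6), C1qb (55.1), C1qc (33.6), C1qa (18.8), Mrc1 (12.0), Csf1r (4.73), Aif1 (2.83), Adgre1 (1.44) and Cd163 (0). In both groups the step from each gene to the next was smaller than the larger SD of the pair (n = 5 replicates), so no neighbours in either order were separated beyond their spread.

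Profiles near to that of the 10 genes were sought among 568 tested genes with at least 50 counts in a replicate and a range of log2(CPM + 1) no smaller than that of their sum. The measure was the mean absolute difference over the 10 replicates between log2(CPM + 1) profiles centred on their means. The nearest were Trf, the iron carrier transferrin, at 1.01, Ctss at 1.15, Mpp1, a membrane protein, at 1.15, Pard6g, a cell polarity protein, at 1.16 and H2-Aa at 1.19. Their values ranged from 0.192 CPM in naive replicate 1 to 294 CPM in SCVS replicate 4 for Trf, and from 0 to 907 CPM in the same libraries for Ctss. The replicates share the library depth and the uneven detection described above, and nothing is drawn from these profiles about function.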

How the data were processed

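Meningeal LECs of 5 naive and 5 SCVS replicates were compared. After whole-transcriptome amplification and trimming, the authors aligned the reads with HISAT2 2.0.1 and deposited raw counts per gene with no normalization. The submitters' processing notes also name cutadapt 1.9.1 and HTSeq 0.6.1, and they name GRCm38 where the paper's methods name mm9. The table holds gene identifiers above those of the mm9 annotation at hand (GENCODE M1). Coordinates and promoters are RefSeq's, in GRCm38.p6, and exon lengths are from GENCODE M1. Strand use is not stated, and RefSeq genes overlap Adgre1, Csf1r, Mrc1, Cd163 and Cd74, so reads in an overlap are uncertain.

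A gene was tested if 3 or more replicates held over 5 counts of it (14815 genes), the filter of the study's methods. Counts entered edgeR 4.0.16 (R 4.3.3) as deposited, with TMM scaling and a two-sided quasi-likelihood test, at an adjusted p of 0.1. The standard error is the fold change divided by the square root of F. Alternatives were DESeq2 1.42.0, limma 3.58.1 with voom, other scalings and filters, a replicate block, and leaving out each replicate. CPM use the total count of each replicate. All tools were tested on simulated data with 200 changed genes. The simulated dispersion (spread beyond counting error) was 0.1, against a common dispersion of 2.53 in the deposited counts. That test therefore does not show how the tools perform at the spread of these libraries.

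The members and the gene lists were chosen with earlier results of these data known. The genes named are the 10 members, Ptprc, the 2 genes of each list with the highest mean CPM, and the 5 nearest profiles, except that some genes under this rule are not reported here. Other list genes, among them Itga2b, Ciita, Cma1 and Tpsb2, and Cldn5, Pecam1, Prox1 and Gp5 were named after their values were seen. Nothing says that cells of a replicate number came from shared animals. P-values measure the spread between pools of animals.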

Additional observations from a re-analysis of the deposited data

Results flagged for a closer look

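In each group of 5 replicates, the highest and the lowest CPM were compared with the rest, and a value was noted where its gap to the nearest other replicate exceeded 0.71 of the group's range (Dixon's criterion). This was done for the 10 genes, Ptprc and the summed level, 24 groups in all. Chance marks about 1 in 20 groups of normally distributed values, a rate that does not hold for skewed CPM with many zeros: over the tested genes, 22.3% of 29502 groups with any spread were marked. Of the 24, 15 were marked, of which 8 were SCVS replicate 4 and 6 were naive replicate 4. SCVS replicate 4 stood apart with 332.6 CPM of Adgre1, 512 of C1qa, 1081 of C1qb, 731.6 of C1qc, 8.99 of Cd163, 111 of Aif1, 3384 of Cd74 and 6565 of the summed level. Naive replicate 4 stood apart with 54.6 CPM of Adgre1, 42.4 of Csf1r, 61.2 of C1qa, 112 of C1qc, 1.84 of Cd163 and 61.2 of Pf4. SCVS replicate 5 stood apart with 40.5 CPM of Ptprc. The replicates that come next in these groups had 45.4 CPM of Adgre1 and 411 CPM of Cd74 in SCVS mice, and 0.0783 CPM of Csf1r in naive mice. The genes of one library are not independent of each other, so these marks count libraries more than genes.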

How the results depend on the processing

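The number of genes with an adjusted p under 0.1 was 0 in edgeR and 114 in DESeq2 and 2 in limma with voom, and the cause was not tested. It was 0 in edgeR with every other scaling and filter and without any 1 replicate (0 to 0). The number among the 10 genes was 0 in all 17 alternatives, and the lowest adjusted p of a member over them was 0.296, for Cd74 with no filter on low counts. Of 165 fold changes under an alternative, 160 kept their direction and 5 reversed. Aif1 reversed to −0.49 in limma, −0.73 with the replicate block and −1.88 without SCVS replicate 4, and Mrc1 to −0.34 with the replicate block and −0.28 without SCVS replicate 3. Without naive replicate 4, Mrc1 had 1.06 and Aif1 1.55. Sizes moved more than directions. The range over the alternatives was 0.27 to 11.25 for Adgre1, 1.63 to 10.88 for Csf1r, 0.33 to 4.79 for C1qa, 0.38 to 4.59 for C1qb, 0.40 to 3.68 for C1qc, 1.94 to 5.01 for Pf4, 1.55 to 2.89 for Cd163 and 0.73 to 3.45 for Cd74. Limma gave 5.76 for Csf1r, 0.84 for C1qa and 5.01 for Pf4. Cd163 did not pass the filter in 4 alternatives and gave no value there, nor did Adgre1 in 1. Without 1 replicate, the mean summed level was 163 to 354 CPM in naive and 449 to 2050 CPM in SCVS mice.

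With the replicate number as a block, 0 genes were called, and 266 had an unadjusted p under 0.05 in place of 460. The block gave 5.08 for Adgre1 (unadjusted p 0.044 in edgeR), 7.31 for Csf1r, 1.28 for C1qa and 4.22 for Pf4. Deviations of same-numbered replicates correlated at −0.01 to 0.134 across genes. Naive replicates 1, 2, 4 and 5 and SCVS replicates 2, 4 and 5 correlated best with their own number. Naive replicate 3 and SCVS replicates 1 and 3 did not. The numbers were not taken as pairs, and whether same-numbered replicates shared a batch was not tested. A gene at 0 is limited to 3 counts per library, for counting error alone.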

Other observations

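Several macrophage and microglia genes outside the set were read almost solely in SCVS replicate 4. Folr2, a folate receptor of tissue macrophages, had 158 counts there, Lilra5 had 657, and P2ry13, a purine receptor of microglia, had 910, and each was at 0 in the other 9 replicates. Ccr2, the receptor that brings monocytes into tissue, was read in SCVS replicates 4 and 5, with 1595 and 218 counts, and was at 0 elsewhere. Cx3cr1, the fractalkine receptor, reached 3447 counts in SCVS replicate 4 and 371 in SCVS replicate 1, with 210 and 115 in naive replicates 4 and 5, and at most 2 in any other library. Ltf, which encodes lactoferrin, had 3702 counts in SCVS replicate 4 and 382 in naive replicate 5, with at most 13 in any other library. S100a9, another neutrophil gene, was read in naive replicate 4 alone, with 61 counts.

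Of 6 mast cell genes with any read, 4 were highest in SCVS replicate 5. Ms4a2, a chain of the IgE receptor, had 286 counts there and 0 in every other replicate, and Kit had 242 counts there, 469 in naive replicate 3, 48 in naive replicate 5, 44 in SCVS replicate 4 and at most 3 in any other library. Cma1 had 262 counts in naive replicate 3, 32 in SCVS replicate 4 and 1 in SCVS replicate 5, and Tpsb2 had 167 in naive replicate 4 and 160 in SCVS replicate 5. These genes were chosen after their values were seen, and no test was made of them.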
